A study of Mus musculus with 2 samples.

Results

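The 6 genes described here are the platelet-derived growth factor (PDGF) ligands Pdgfa, Pdgfb, Pdgfc and Pdgfd and the receptors Pdgfra and Pdgfrb. They were chosen by symbol, and all 6 were found among the 25827 genes of both feature tables. Single cells were profiled on the 10x Genomics Chromium platform with 3′ v3.1 chemistry, which reads one end of each transcript and counts molecules by unique identifiers (UMIs). The cells came from the whole brain of adult mice and were sorted by surface protein. CD13+ and/or CD140a+O4- cells were taken as mural cells and fibroblasts, CD31+ cells as endothelium, ACSA-2+ cells as astrocytes, CD11b+F4/80hi cells as microglia, and CD11bhiF4/80+ cells as border-associated macrophages (BAMs). 1 library came from IL34LacZ/+ mice, with the lacZ allele of Il34 on 1 chromosome, and is called HET below. The other came from IL34LacZ/LacZ mice, with that allele on both chromosomes, and is called HOM. Both groups therefore carry a lacZ allele, and no wild-type library was analysed here. How many mice went into a library, and their sex and exact age, is not stated in the labels.

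PDGF ligands are secreted dimers that bind and pair the receptor tyrosine kinases PDGFRα and PDGFRβ. In the vessel wall, PDGF-B from endothelial cells is held at the cell surface and matrix and recruits and keeps pericytes, the contractile cells of capillaries, which carry PDGFRβ. PDGF-A acts through PDGFRα, which marks oligodendrocyte precursors and many fibroblasts. PDGF-C and PDGF-D are secreted in a latent form and need proteolytic cleavage before they bind.

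On GRCm38, in the GENCODE vM21 annotation, Pdgfa (ENSMUSG00000025856) is at chr5:138976014-138997370 on the minus strand and Pdgfb (ENSMUSG00000000489) at chr15:79995874-80014977 on the minus strand. Pdgfc (ENSMUSG00000028019) is at chr3:81036416-81214040 and Pdgfd (ENSMUSG00000032006) at chr9:6168584-6378850, both on the plus strand. Pdgfra (ENSMUSG00000029231) is at chr5:75152292-75198215 and Pdgfrb (ENSMUSG00000024620) at chr18:61045150-61085061, also on the plus strand. Each value is the whole gene's count, so transcripts of one gene are not told apart. Annotated genes overlap 5 of the 6 (6330403L08Rik on Pdgfa, Gm41361 and Mir7213 on Pdgfb, Gm16000 on Pdgfc, Ddi1 on Pdgfd, and Gm42802, Gm42803 and Mir7025 on Pdgfra). Csf1r, the receptor of interleukin-34, begins 15536 bases downstream of Pdgfrb on the same strand.

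In HET there were 17168 barcodes (87394167 UMIs), of which 8208 passed the filters with a median depth of 3540.5 UMIs. In HOM there were 18858 barcodes (95505407 UMIs), of which 9619 passed with a median depth of 3684 UMIs. The libraries shared 103 barcodes, 26 of them among the kept cells. Cells were clustered without the 6 genes and named from markers that include none of them, so a class's PDGF levels did not shape it. 11 classes held at least 50 cells in each library. The sorted astrocytes were nearly missing, with 17 HET and 15 HOM astrocyte-like cells, whereas choroid plexus epithelial-like, ependymal-like, neuron-like and oligodendrocyte-like cells were present without a gate of their own. Il34 itself was read at 25.6 CPM in HET and 21.8 CPM in HOM fibroblast-like cells and at 131 and 111 CPM in mural-like cells. A 3′ count outside an allele's insertion checks nothing, and the labels do not place the insertion, so the genotype labels were not checked by it.

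Pdgfb and Pdgfrb levels were highest on opposite sides of the vessel wall. Endothelial-like cells, which line the vessel, held the highest Pdgfb level, followed by microglia-like cells. Pdgfrb was highest in mural-like cells, the pericytes and smooth muscle cells around the vessel, with fibroblast-like cells far below. Pdgfra was highest in fibroblast-like cells, and Pdgfa in oligodendrocyte-like cells, the myelin-forming cells. These rankings, here and below, cover the named classes only. Unnamed clusters with higher Pdgfra, Pdgfa, Pdgfb or Pdgfd levels are described at the end. Levels below are in CPM, the usual scaling by depth, taken over the summed UMIs of a class in 1 library, with exact Poisson 95% intervals. These intervals and those of all ratios and shares cover counting error only. Levels are compared between classes for one gene at a time, never between genes.

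**Figure D1:**
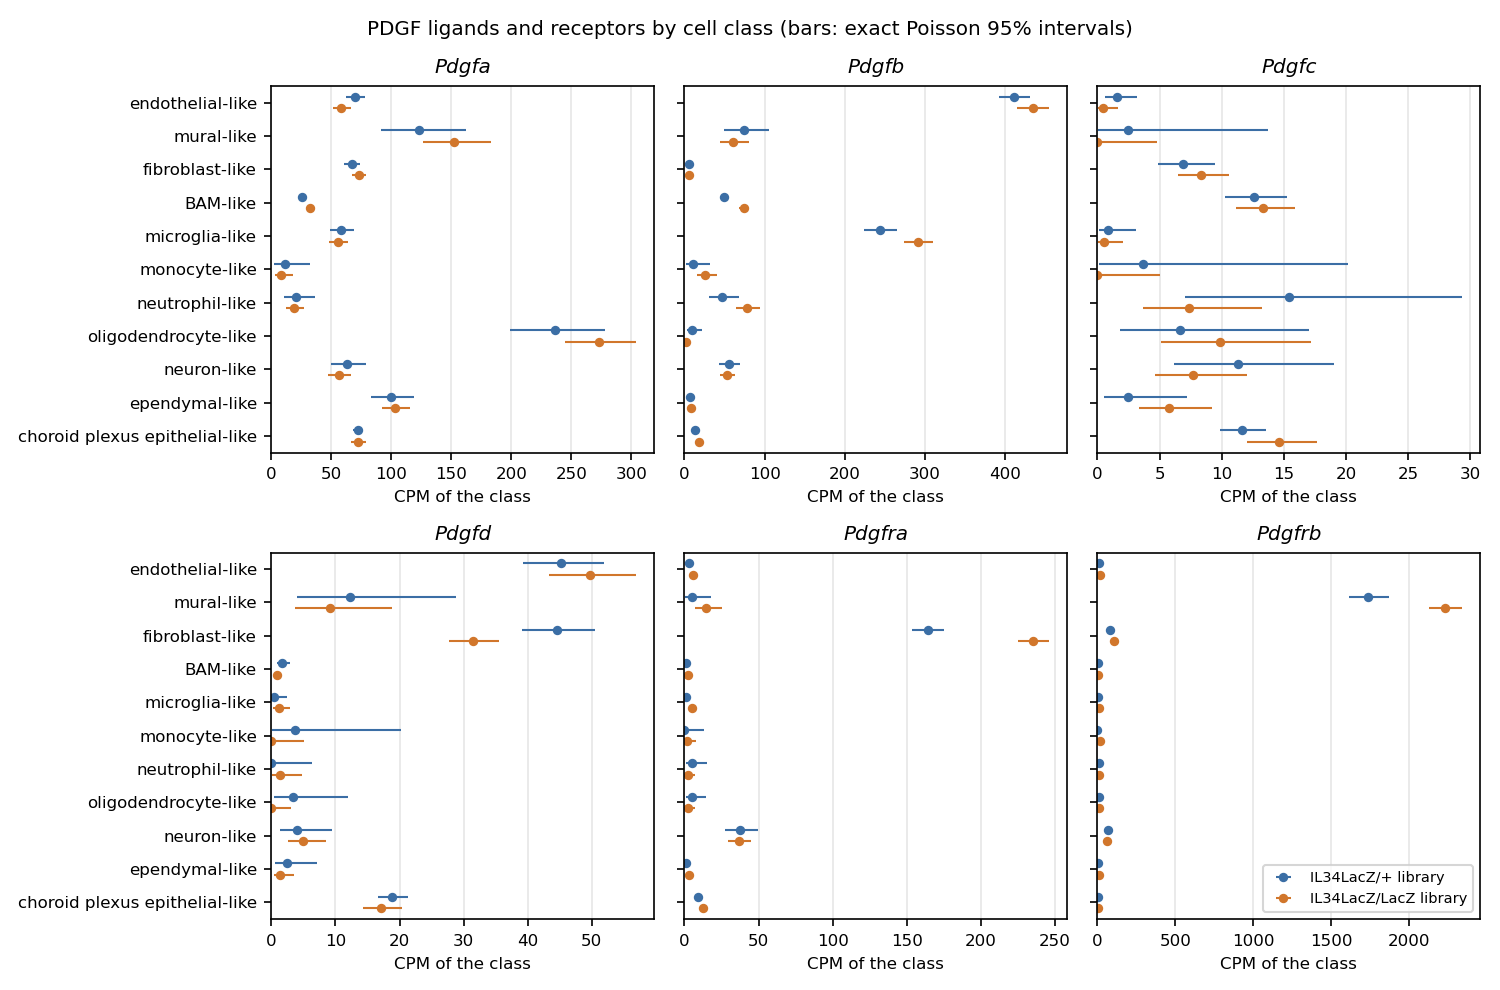
Level of each PDGF gene (horizontal axis, CPM of the class) in the cell classes (vertical axis) of the HET and HOM libraries. Points are levels and bars exact Poisson 95% intervals. Among these named classes, Pdgfb was highest in endothelial-like cells (411 and 435 CPM), Pdgfrb in mural-like cells (1739 and 2233 CPM) and Pdgfra in fibroblast-like cells (164 and 235 CPM), while Pdgfa was spread over more classes. Unnamed clusters are not shown.

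Pdgfb, the endothelial ligand of PDGFRβ, stood at 411 CPM in HET endothelial-like cells (1863 UMIs in 1718 cells, interval 393 to 431). In the HOM library it stood at 435 CPM (1885 UMIs in 1638 cells, interval 415 to 455). Microglia-like cells, the resident macrophages of the parenchyma, followed with 244 CPM in HET (565 UMIs, interval 224 to 265) and 291 CPM in HOM (1032 UMIs, interval 274 to 310). In both libraries endothelial-like and microglia-like cells stood apart from each other and from all lower classes. BAM-like cells, the macrophages of the brain's borders, had 49.7 and 73.7 CPM, and fibroblast-like cells 5.82 and 5.88 CPM. Of all Pdgfb UMIs, 50.7% in HET and 39.8% in HOM came from endothelial-like cells, 15.4% and 21.8% from microglia-like cells, and 11.2% and 14.7% from BAM-like cells.

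To compare how many cells held Pdgfb, every cell was thinned to 1000 UMIs. A UMI of Pdgfb was then found in 33.2% of HET endothelial-like cells (interval 31.0% to 35.5%) and 35.5% of HOM ones (33.2% to 37.9%). Among microglia-like cells the share was 19.3% and 24.4%, and among BAM-like cells 5.09% and 6.47%. Fibroblast-like cells, among the classes with the lowest Pdgfb levels, had 0.35% and 0.921%. Neutrophil-like cells stood at 46.4 CPM of Pdgfb in HET and 78.5 CPM in HOM, close to the BAM-like level. Their shares are given below. Without thinning the shares were 57.3% and 59.5% in endothelial-like cells and 3.26% and 3.02% in fibroblast-like cells, at median depths of 2068 and 2073.5 UMIs against 5579.5 and 5475 UMIs. The low share thus stood in the deeper cells.

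Free RNA from 1 source would keep that source's genes in 1 ratio in every class, so Pdgfb was set against 6 endothelial markers. In endothelial-like cells there were 2.95 Pdgfb UMIs per 100 marker UMIs in HET and 3.12 in HOM. Fibroblast-like cells had a like ratio of 2.44 and 2.70, and mural-like cells one of 3.37 and 3.55. Microglia-like cells had 299 and 321 and BAM-like cells 20.5 and 36.2. The BAM-like subcluster with microglia markers had 206 and 319. Choroid plexus epithelial-like cells had 27.3 and 30.2, and neutrophil-like cells 18.5 and 73.1. The part of free RNA in these counts was not tested.

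Pdgfa, the ligand of PDGFRα, was highest in oligodendrocyte-like cells, at 236 CPM in HET (142 UMIs in 96 cells, interval 199 to 278) and 273 CPM in HOM (333 UMIs in 172 cells, interval 245 to 304). These cells stood apart from mural-like cells, the next class, at 123 and 153 CPM. Ependymal-like cells had 99.7 and 103 CPM and choroid plexus epithelial-like cells 72.1 CPM in each library. Endothelial-like, fibroblast-like, neuron-like and microglia-like cells lay close together, between 55.9 and 72.6 CPM. BAM-like cells had 25.6 and 32.5 CPM. After thinning, 19.8% and 20.3% of oligodendrocyte-like cells held a Pdgfa UMI, beside 4.35% and 0.775% of neutrophil-like cells, whose median depths were 7406 and 8408 UMIs. The largest share of Pdgfa UMIs came from choroid plexus epithelial-like cells in HET (33.7%) and from fibroblast-like cells in HOM (17.1%). Such shares, for every gene here, also follow how many cells of a class were sorted and kept. Choroid plexus epithelial-like cells numbered 867 in HET and 460 in HOM.

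Pdgfd, a latent ligand of PDGFRβ, was highest in endothelial-like and fibroblast-like cells among the named classes with at least 50 cells in each library. Endothelial-like cells had 45.3 CPM in HET (205 UMIs, interval 39.3 to 51.9) and 49.8 CPM in HOM (216 UMIs, interval 43.4 to 56.9). Fibroblast-like cells had 44.6 CPM (245 UMIs, interval 39.2 to 50.5) and 31.5 CPM (257 UMIs, interval 27.8 to 35.6). The intervals of the 2 classes overlapped in HET and not in HOM. Choroid plexus epithelial-like cells followed with 18.8 and 17.1 CPM. Microglia-like cells had 1 and 4 UMIs in all, and after thinning 0% and 0.197% of them held one, beside 4.66% and 5.19% of endothelial-like cells.

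Pdgfc, a latent ligand of PDGFRα, was the sparsest member, with 375 UMIs in all HET cells and 414 in all HOM cells. BAM-like cells had 12.6 CPM in HET (104 UMIs, interval 10.3 to 15.2) and 13.3 CPM in HOM (126 UMIs, interval 11.1 to 15.9). Choroid plexus epithelial-like cells had 11.6 CPM (158 UMIs) and 14.6 CPM (107 UMIs). Fibroblast-like cells had 6.91 CPM (38 UMIs) and 8.34 CPM (68 UMIs). Endothelial-like cells had 7 and 2 UMIs, microglia-like cells 2 in each library, while mural-like cells held 1 UMI in HET and 0 in HOM. The 0 among 344 HOM mural-like cells allows a level of up to 3.91 CPM at the limit of 3 counts. The neutrophil-like level of 15.5 CPM in HET rests on 9 UMIs and was 7.38 CPM in HOM on 11 UMIs.

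Pdgfrb, the receptor that defines the PDGF-B response of pericytes, stood at 1739 CPM in HET mural-like cells (705 UMIs in 176 cells) and 2233 CPM in HOM ones (1712 UMIs in 344 cells). The intervals, 1613 to 1872 and 2128 to 2341, did not overlap. Fibroblast-like cells followed at 82.7 and 107 CPM, and neuron-like cells at 70.4 and 59.6 CPM. The fibroblast-like and neuron-like levels stood apart in HOM and not in HET. Mural-like cells gave 44.8% of all Pdgfrb UMIs in HET and 51.8% in HOM although they were few, and fibroblast-like cells gave 28.9% and 26.3%.

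After thinning, 81.3% of HET and 86.3% of HOM mural-like cells held a Pdgfrb UMI, at median depths of 1652.5 and 1857.5 UMIs. In fibroblast-like cells the share was 10.5% and 13.6%. Microglia-like cells, which are not known to carry the receptor, had 1.09% and 0.69% at median depths of 2707 and 3057 UMIs. Set against 6 mural markers, Pdgfrb stood at 15.9 and 15.8 UMIs per 100 marker UMIs in mural-like cells. It stood at 16.5 and 17.9 in BAM-like cells and at 10.2 and 14.3 in microglia-like cells. Endothelial-like cells had 2.66 and 4.77, and monocyte-like cells 0 and 52.6, on 0 and 10 Pdgfrb UMIs. The fibroblast-like ratio was 373 and 241. The part of free mural RNA in these counts was not tested.

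Pdgfra stood at 164 CPM in HET fibroblast-like cells (903 UMIs in 858 cells, interval 154 to 175) and 235 CPM in HOM ones (1919 UMIs in 1194 cells, interval 225 to 246). The sort took cells with its protein, CD140a, so how many Pdgfra-bearing cells there are follows the gate. Neuron-like cells followed at 37.2 and 36.5 CPM and stood apart from all lower classes in both libraries. Fibroblast-like cells gave 62.0% and 73.7% of all Pdgfra UMIs. After thinning 18.3% and 26.8% of them held one, beside 0.136% and 0.591% of microglia-like cells and 0 of 69 and 0 of 129 neutrophil-like cells.

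The neuron-like cluster held RNA of other lineages beside its receptor counts. Markers of oligodendrocyte precursors, the glial cells that carry PDGFRα, were read there too, with Olig1 at 25.9 and 25.2 CPM and Lhfpl3 at 21.0 and 18.3 CPM. The mural gene Rgs5 stood there at 71.2 and 103 CPM and the fibroblast gene Col1a1 at 42.9 and 33.7 CPM. The part of these cells or of free RNA in the receptor levels was not tested, and no class of oligodendrocyte precursors was separated.

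Within the endothelium, Pdgfb, Pdgfa and Pdgfd were ordered differently along the vessel. Of the capillary-like, arterial-like, venous-like and larger fenestrated-like subclusters, the venous-like one had the lowest Pdgfb level, at 211 CPM in HET and 245 CPM in HOM. It stood at 401 and 415 CPM in capillary-like cells, 444 and 482 CPM in arterial-like cells and 526 and 549 CPM in the larger fenestrated-like subcluster. Fenestrated cells are the leaky endothelium of the circumventricular organs, choroid plexus and pituitary. A second fenestrated-like subcluster, led by Prl, had 1 HET cell and 28 HOM cells, and both together had 529.7 and 517 CPM of Pdgfb. The level in the larger subcluster was 2.50 times the venous-like one in HET (interval 2.07 to 3.02) and 2.24 times in HOM (1.83 to 2.75). An unnamed subcluster led by Apln, a gene of angiogenic tip cells, had 490 and 590 CPM. Its other leading genes were mostly unannotated Gm transcripts, among them Gm48602, Gm37393 and Gm37642. Its cells had a median of 1500 UMIs, against 1884.5 in capillary-like cells. Of the endothelial subset markers, the capillary ones scored highest in it, at a mean log2 enrichment of 0.50 over endothelial-like cells. In the capillary-like subcluster they scored 0.31. The Apln-led subcluster stayed unnamed because the lead over arterial markers (-0.40) was below 1.

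Pdgfa was instead highest in venous-like cells among the same subclusters. Venous-like cells had 162 CPM in HET (125 UMIs) and 136 CPM in HOM (109 UMIs), against 39.5 and 36.8 CPM in capillary-like cells and 79.8 and 68.7 CPM in arterial-like cells. The venous-like level was 4.10 times the capillary-like one in HET (interval 2.9 to 5.88) and 3.70 times in HOM (2.54 to 5.5). Pdgfd followed Pdgfb in being low in venous-like cells, at 16.8 CPM on 13 UMIs and 31.2 CPM on 25 UMIs, and higher in fenestrated-like cells, at 67.4 and 84.3 CPM. The Pdgfd difference between capillary-like and venous-like cells had an interval above 1 in HET (ratio 2.60, 1.39 to 5.22) and one that holds 1 in HOM (ratio 1.46, 0.879 to 2.47).

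**Figure D2:**
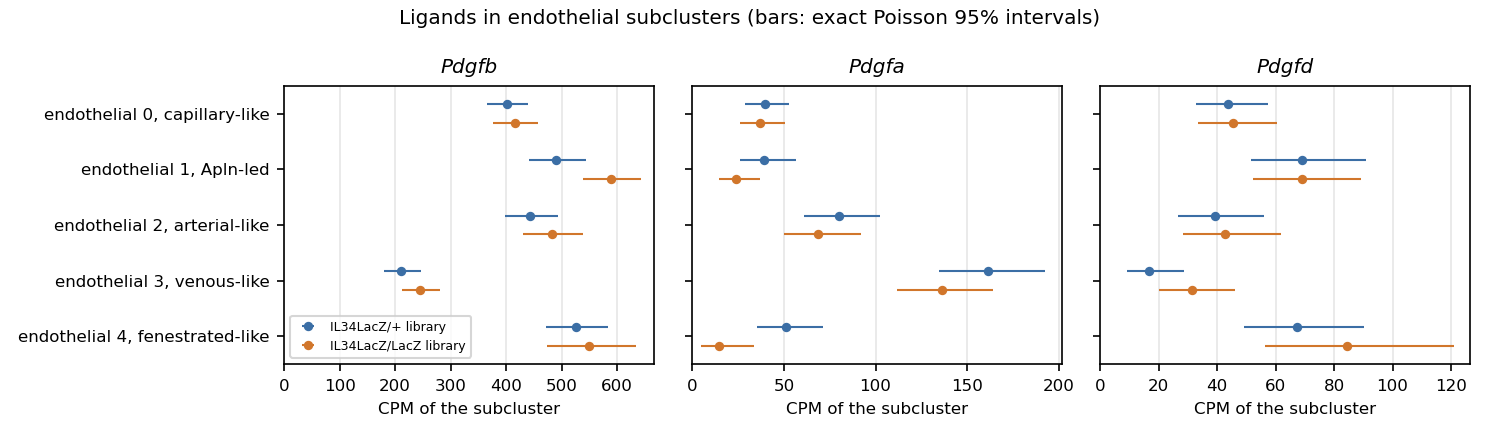
Pdgfb, Pdgfa and Pdgfd levels (horizontal axes, CPM of the subcluster) in the endothelial subclusters (vertical axis) of both libraries, with exact Poisson 95% intervals as bars. In venous-like cells Pdgfb was at its lowest (211 and 245 CPM) and Pdgfa at its highest (162 and 136 CPM), in HET and in HOM alike.

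Among mural-like cells, the pericyte-like subcluster, from capillaries, had the higher Pdgfrb level and the smooth muscle-like one, from arteries and veins, the higher Pdgfa level. Pdgfrb stood at 2399 CPM in HET and 2570 CPM in HOM pericyte-like cells (134 and 287 cells) and at 1495 and 1860 CPM in smooth muscle-like cells (20 and 30 cells). The pericyte-like level was 1.60 times the other in HET (interval 1.24 to 2.10) and 1.38 times in HOM (1.15 to 1.67). Pdgfa stood at 99.6 and 124 CPM in pericyte-like cells and at 408 and 523 CPM in smooth muscle-like cells, on 18 and 36 UMIs in the latter. The Pdgfa ratio, smooth muscle-like over pericyte-like, was 4.10 in HET (2.08 to 7.93) and 4.21 in HOM (2.74 to 6.38). Mural-like cells thus held a receptor for one ligand and transcripts of another. Their Pdgfb level, 74.0 and 60.0 CPM over the class, was 327 and 295 CPM in a subcluster that also held endothelial markers (15 and 22 cells) and 26.0 and 22.7 CPM in pericyte-like cells.

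Among fibroblast-like cells, 1 subcluster had a Pdgfra level far above the others. This subcluster was led by Col15a1, Slc7a11, Lama1 and Slc6a13 and had 1378 CPM of Pdgfra in HET (641 UMIs in 173 cells) and 1924 CPM in HOM (1454 UMIs in 309 cells). The subcluster led by Bche had 28.4 and 31.4 CPM, and the one led by Krtdap 102 CPM in each library. The Col15a1-led level was 48.6 times the Bche-led one in HET (interval 37.7 to 63.6) and 61.2 times in HOM (50.7 to 74.7). After thinning, 69.9% and 82.5% of the Col15a1-led cells held a Pdgfra UMI. Pdgfrb was higher in the same cells, at 320 and 474 CPM against 61.0 and 69.0 CPM in the Bche-led ones.

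The ligands lay in the other fibroblast-like subclusters. Pdgfa stood at 93.6 and 107 CPM in Krtdap-led cells and 71.8 and 73.1 CPM in Bche-led cells, and at 19.3 and 11.9 CPM in Col15a1-led cells. Pdgfd stood at 49.4 and 44.1 CPM in Bche-led cells and at 12.9 and 1.32 CPM in Col15a1-led cells, on 6 UMIs and 1 UMI in the latter. The receptor-high fibroblast-like cells were thus those with the lowest Pdgfa and Pdgfd levels of these 3 subclusters in both libraries.

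**Figure D3:**
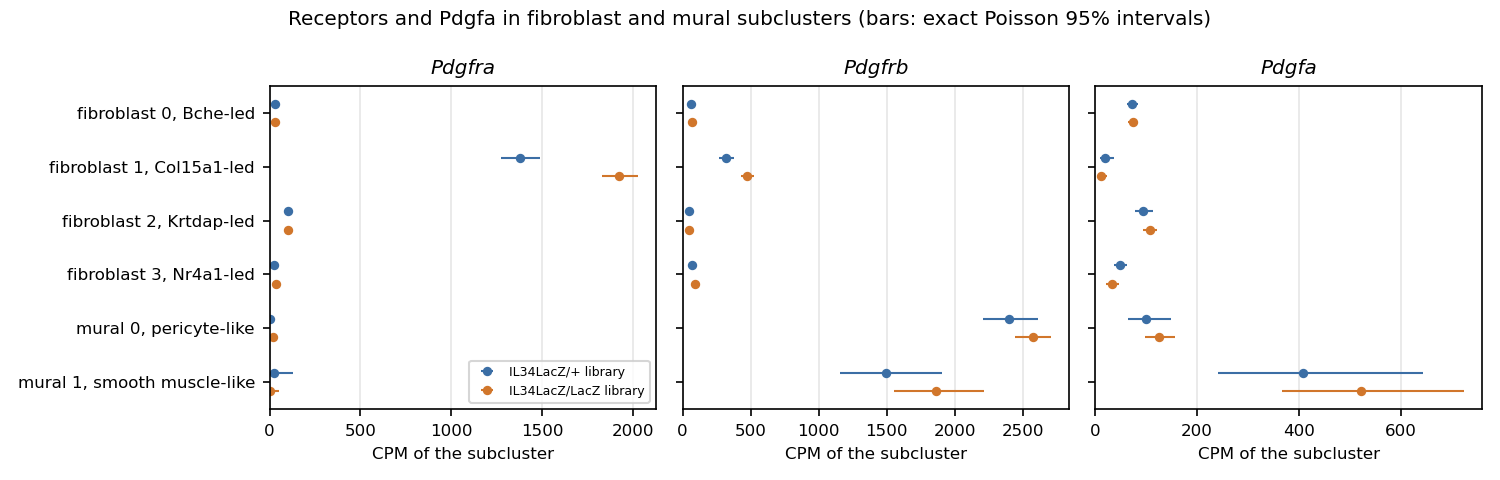
Pdgfra, Pdgfrb and Pdgfa levels (horizontal axes, CPM of the subcluster) in fibroblast and mural subclusters (vertical axis) of both libraries, with exact Poisson 95% intervals as bars. Pdgfra stood at 1378 and 1924 CPM in the Col15a1-led fibroblast subcluster, Pdgfrb was highest in pericyte-like cells (2399 and 2570 CPM), and Pdgfa was highest in smooth muscle-like cells (408 and 523 CPM).

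Receptor and ligand were also counted in single thinned cells. Both receptors were found together in 38 of 858 HET fibroblast-like cells, where the product of the 2 single shares would give 16.5 cells. In HOM they were together in 93 of 1194 cells, where the product gives 43.4. Within the Col15a1-led subcluster alone they were together in 33 of 173 HET cells (product 29.4) and 87 of 309 HOM cells (product 82.5), closer to the product than in the whole class. Pdgfra and Pdgfa were together in 1 HET cell (product 7.50 cells) and 3 HOM cells (product 15.8 cells). In endothelial-like cells, Pdgfb and Pdgfd were together in 22 HET cells (product 26.6) and 33 HOM cells (product 30.2), and Pdgfb and Pdgfa in 22 (product 30.9) and 17 (product 23.1). In mural-like cells, Pdgfa and Pdgfrb were together in 10 HET cells (product 12.2) and 49 HOM cells (product 46.6). These counts are descriptions of sparse data.

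Between the libraries, most PDGF ratios lay within 1.5-fold, more of them above 1 than below. Each genotype has 1 library and so no replicate, no test was possible, and the genotype, the sort and the library preparation cannot be told apart. Ratios are HOM over HET with exact conditional 95% intervals. Of 28 gene and class pairs with at least 100 UMIs over both libraries, 20 had a ratio above 1, and the median log2 ratio was 0.17. Over all genes, the class medians ran from -0.016 in neutrophil-like cells to 0.081 in mural-like cells. The interval left out 1 for 11 of the 28, 9 with HOM higher and 2 with HOM lower. Over all genes and classes this held for 18.9% of 67803 pairs, 10.9% with HOM higher and 8.04% with HOM lower. Past 1.5-fold up or down, with such an interval, was 1 of the 28, against 3.77% of all pairs.

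**Figure D4:**
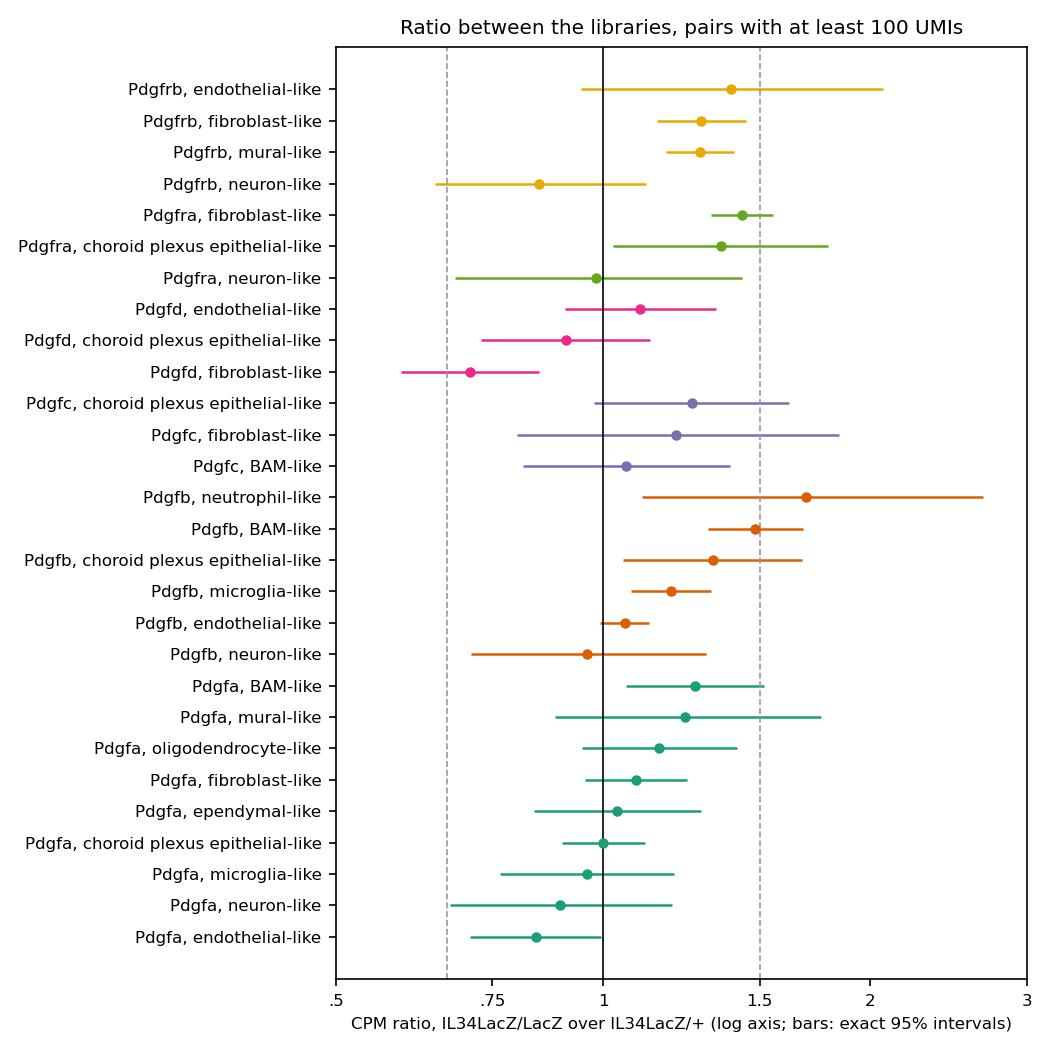
CPM ratio between the libraries (horizontal axis, log scale, IL34LacZ/LacZ over IL34LacZ/+) for the 28 gene and class pairs (vertical axis) with at least 100 UMIs, coloured by gene, with exact 95% intervals as bars. Pdgfb in endothelial-like cells was at 1.06, Pdgfb in BAM-like cells at 1.48, Pdgfra in fibroblast-like cells at 1.43 and Pdgfrb in mural-like cells at 1.28. Pdgfd in fibroblast-like cells (0.707) and Pdgfa in endothelial-like cells (0.839) had whole intervals below 1.

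The pair past 1.5-fold was Pdgfb in neutrophil-like cells, at 46.4 CPM in HET (27 UMIs in 69 cells) and 78.5 CPM in HOM (117 UMIs in 129 cells), a ratio of 1.69 (1.11 to 2.68). In that class 2.56% of 2736 genes were higher by this rule. Single cells held up to 4 UMIs in HET and 13 in HOM. After thinning 1.45% and 3.88% of these cells held Pdgfb, which is 1 and 5 cells. The class also held macrophage RNA, with Csf1r at 1221 and 1156 CPM. The 10 BAM markers summed to 5443 CPM in HET and 3974 CPM in HOM, and the 10 microglia markers to 3211 and 4180.3 CPM, with none of either list at 0. Their part in the Pdgfb ratio was not tested.

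In endothelial-like cells, the named class with the highest Pdgfb level, Pdgfb differed little between the libraries, with a ratio of 1.06 (0.991 to 1.13). The capillary-like, arterial-like, venous-like and fenestrated-like subclusters had ratios of 1.03, 1.09, 1.16 and 1.04, each with an interval that holds 1. The Apln-led subcluster, in which capillary markers also scored highest, had a ratio of 1.2 (1.05 to 1.38). Endothelial Pdgfa was lower in HOM, with a ratio of 0.839 (0.708 to 0.993). Its ratio was 0.932, 0.861 and 0.842 in capillary-like, arterial-like and venous-like cells, each with an interval that holds 1. In the fenestrated-like subcluster it was 0.285 (0.0871 to 0.733), on 34 and 5 UMIs. Over both fenestrated-like subclusters it was 0.64 (0.317 to 1.22), on 34 and 14 UMIs, so the interval then held 1.

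In microglia-like cells Pdgfb was higher in HOM, with a ratio of 1.19 (1.08 to 1.32). In BAM-like cells, the class in the study's title, the Pdgfb ratio was 1.48 (1.31 to 1.68) on 411 and 696 UMIs, and 2.41% of 9489 genes had a higher ratio there. The subclusters of the class held very different Pdgfb levels, and their mix differed. The largest, an MHC class II low-like one, had 32.0 and 33.8 CPM, a ratio of 1.06 (0.796 to 1.40). The MHC class II high-like one had 83.1 and 111 CPM, a ratio of 1.33 (1.06 to 1.69), and made up 16.4% of the UMIs of BAM-like cells in HET and 20.4% in HOM. A subcluster with microglia markers had 194 and 245 CPM, a ratio of 1.26 (0.95 to 1.69), and made up 3.98% and 9.64% of those UMIs (45 and 97 cells).

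The BAM-like log2 ratio of 0.57 for Pdgfb was 0.34 without the subclusters that hold markers of another class and 0.26 with the same mix of subclusters in both libraries. The 6 endothelial markers together stood at 243 CPM in HET and 204 CPM in HOM BAM-like cells. The part of endothelial or microglial RNA in the Pdgfb ratio was not tested. BAM-like Pdgfa had a ratio of 1.27 (1.06 to 1.52), and 1.5 (1.02 to 2.24) in the MHC class II high-like subcluster, where it stood at 29.4 and 44.2 CPM. Pdgfc had a ratio of 1.06 (0.812 to 1.39) in the whole class. It stood at 364 CPM in HET and 265 CPM in HOM in a small subcluster led by Ccr3 and Vcam1, of 7 and 13 cells.

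**Figure D5:**
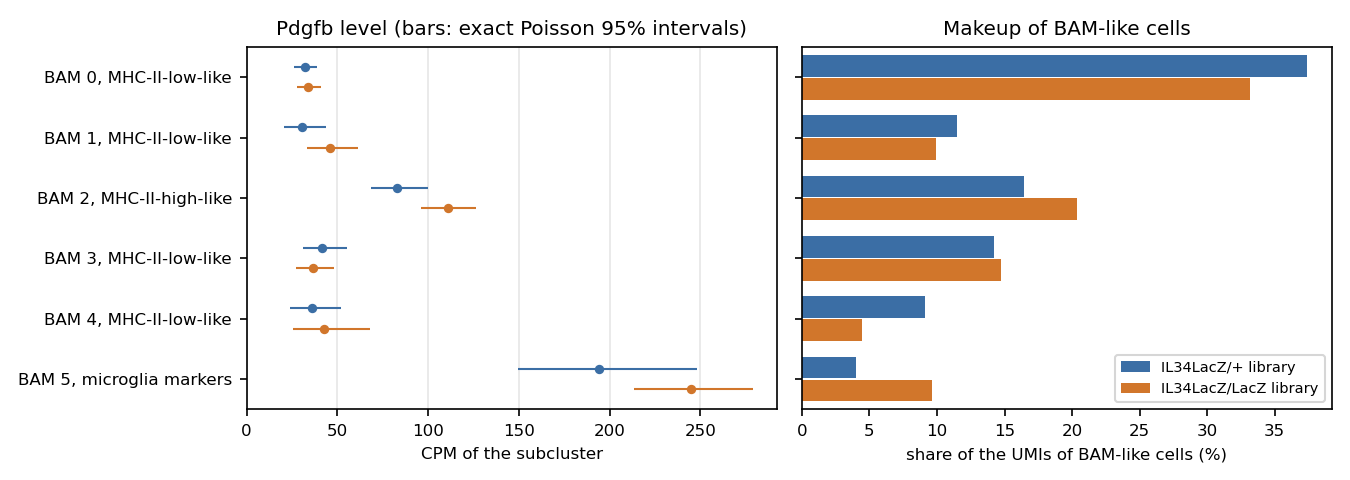
Left, Pdgfb level (CPM of the subcluster, bars are exact Poisson 95% intervals) in 6 BAM subclusters of both libraries. Right, the share of the UMIs of BAM-like cells (percent) that each subcluster made up. Of the 6 shown, those with the highest Pdgfb levels, the MHC class II high-like one (83.1 and 111 CPM) and the one with microglia markers (194 and 245 CPM), made up 16.4% and 3.98% of UMIs in HET and 20.4% and 9.64% in HOM. Smaller subclusters are not shown, among them one with endothelial markers (25 and 27 cells, 13 and 21 Pdgfb UMIs).

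Both receptors were read at higher levels in HOM fibroblast-like cells. An unnamed cluster led by Prl, Pomc and Dcn, with red-cell markers beside fibroblast ones, differed in the opposite direction and is described at the end. Pdgfra in fibroblast-like cells had a ratio of 1.43 (1.32 to 1.55) and Pdgfrb there one of 1.29 (1.15 to 1.45). In the Col15a1-led subcluster the ratios were 1.40 (1.27 to 1.53) and 1.48 (1.22 to 1.80), whereas in the Bche-led one both intervals held 1 (1.11 and 1.13). In the Col15a1-led cells the 6 mural markers stood at 73.1 CPM in HET and 219.6 CPM in HOM, and the 6 fibroblast markers at 12888.5 and 16169.9 CPM. Pdgfra stood there at 10.7 and 11.9 UMIs per 100 fibroblast-marker UMIs, and Pdgfrb at 438 and 216 UMIs per 100 mural-marker UMIs. The part of these markers in the ratios was not tested. The Col15a1-led subcluster made up 20.2% of fibroblast-like cells in HET and 25.9% in HOM, and 8.46% and 9.27% of their UMIs. Given the same mix of subclusters in both libraries, the log2 ratio of Pdgfra was 0.37, beside 0.52 as measured.

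Pdgfd in fibroblast-like cells was lower in HOM, with a ratio of 0.707 (0.591 to 0.846), and 98.3% of 9981 genes had a higher ratio. At a mitochondrial limit of 5% the direction turned, with a log2 ratio of 0.15. In the Bche-led subcluster the ratio was 0.893 (0.699 to 1.14). The subcluster led by Nr4a1 and other immediate-early genes had the highest Pdgfd level in HET, 69.0 CPM, and 39.5 CPM in HOM, and made up 21.1% and 10.5% of fibroblast-like UMIs. The part of this mix in the class ratio was not tested.

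Pdgfrb in mural-like cells had a ratio of 1.28 (1.18 to 1.40), whereas in the pericyte-like subcluster it was 1.07 (0.971 to 1.18). Cells of a subcluster that held red-cell and choroid plexus genes, 7 in HET and 5 in HOM, made up 16.3% and 2.73% of mural-like UMIs and had 409 and 1196 CPM of Pdgfrb. Without the subclusters that hold markers of another class the log2 ratio of Pdgfrb was 0.15, against 0.36 with them. Choroid plexus epithelial-like cells had 19 and 39 UMIs of Pdgfrb (1.40 and 5.34 CPM), which is 12.5 and 24.8 UMIs per 100 mural-marker UMIs, beside 15.9 and 15.8 in mural-like cells. Over all kept cells the 6 mural markers stood at 186 CPM in HET and 291 CPM in HOM.

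The wider pathway was read from 5 lists of 70 genes: ligand processing and retention, receptor adaptors and signalling, co-receptors and negative regulators, genes of primary brain calcification, and PDGF and VEGF relatives. Called here means at least 100 UMIs, 1.5-fold and an interval without 1. In endothelial-like cells 1 of 55 list entries measured was called higher in HOM and 0 lower, beside 1.64% of all genes higher and 1.08% lower. In BAM-like cells 1 of 52 was higher and 0 lower, beside 2.22% and 0.991% of all genes. In fibroblast-like cells 3 of 63 were higher and 0 lower, beside 1.78% and 0.962%, and in microglia-like cells 3 of 48 were higher and 1 lower, beside 1.81% and 0.951%. In mural-like cells 7 of 27 were higher and 0 lower, beside 5.29% and 4.19% of all genes. Nrp1 is in 2 lists and counts in each.

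Of the processing and retention list, Vtn was higher in HOM in 3 classes. Vtn encodes vitronectin, a matrix protein made by pericytes and fibroblasts. It stood at 391 and 602 CPM in fibroblast-like cells, a ratio of 1.54, and at 3782 and 4841 CPM in the Col15a1-led subcluster, a ratio of 1.28. In BAM-like cells it stood at 16.2 and 28.8 CPM, a ratio of 1.78, and in microglia-like cells at 20.7 and 37.5 CPM, a ratio of 1.81. The 6 mural markers, which do not include Vtn, stood at 20.5 and 28.4 CPM in BAM-like cells and at 54.9 and 66.9 CPM in microglia-like cells. Their part in these ratios was not tested.

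Of the co-receptors and negative regulators, Rgs5, a pericyte gene that damps G protein signalling, stood at 9.09 and 17.2 CPM in fibroblast-like cells (ratio 1.89). The 6 mural markers, Rgs5 among them, stood there at 22.2 and 44.3 CPM, and Rgs5 alone at 12.9 and 74.1 CPM in the Col15a1-led subcluster. The part of mural RNA in that ratio was not tested. Ptprj, a receptor phosphatase, stood there at 8.91 and 14.7 CPM (ratio 1.65). The sphingosine phosphate receptor S1pr1 stood at 63.1 and 96.0 CPM in microglia-like cells (ratio 1.52). Of the signalling list in microglia-like cells, the kinase Src stood at 15.6 and 25.4 CPM (ratio 1.63), and the protein kinase C gene Prkca was lower in HOM, at 53.6 and 35.0 CPM (ratio 0.653). Of the relatives, Csf1r in endothelial-like cells had 44.6 and 73.3 CPM, a ratio of 1.64. That ratio was 1.03 without the subclusters that hold markers of another class, 1 of which held macrophage markers and had 50 HET and 102 HOM cells.

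The 7 genes higher in HOM mural-like cells came from 3 lists. Of the signalling list, Pik3ca, a catalytic subunit of PI 3-kinase, stood at 163 and 245 CPM, the adaptor Gab1 at 190 and 300 CPM, and the calcium channel Itpr1 at 289 and 446 CPM. Of the co-receptors and negative regulators, the endocytic receptor Lrp1 stood at 296 and 455 CPM, the feedback inhibitor Spry2 at 116 and 176 CPM, and the phosphatase Dusp6 at 56.7 and 108 CPM. Xpr1, a phosphate exporter from the calcification list, stood at 83.9 and 149 CPM. In the pericyte-like subcluster alone 1 of the 19 list entries measured was called, lower in HOM, beside 4.79% of 1630 genes. It was none of the 7. These 7 were picked for their ratios in the whole class, and pericyte-like cells held 57.0% of its UMIs in HET and 74.6% in HOM. The 7 ratios in that subcluster ran from 1.30 for Lrp1 to 1.68 for Dusp6, and the median log2 ratio of the 19 list entries measured was 0.22, beside 0.00 over all genes.

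Likeness across classes was measured as the Pearson correlation of log2(CPM + 1), averaged over the libraries, over 11 classes that share libraries and depth. It is a description and carries no test. For Pdgfb the closest genes were Itga6 (0.98), Gm38346 (0.947), Ecscr (0.933), Arap3 (0.932) and Tal1 (0.927). For Pdgfrb they were Aspn, Vtn, Heyl, Ano1 and Cspg4, from 0.98 to 0.974, and for Pdgfra Podn, Pcsk5, Slc23a2, Lama1 and Slc4a10, from 0.974 to 0.946. Pdgfd was closest to Id1, Id3, Stra6, Palmd and Edn3 (0.962 to 0.903), and Pdgfa to Lmbrd1, Aldh6a1, Paip2b, Zswim1 and Rab4a (0.951 to 0.932). Pdgfc had no close likeness, with Gas7 at 0.723 followed by Deptor, Wwp1, Atp6v1a and Shtn1. Among the members, Pdgfra correlated with Pdgfrb at 0.519 and with Pdgfd at 0.619, and Pdgfb with Pdgfc at -0.511.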

How the data were processed

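The authors deposited whole-number UMI counts for each gene in each barcode. The file headers name Cell Ranger 5.0.0, and the submitters' processing notes name GRCm38.p6 and mm10. Every column was used. How barcodes were kept before deposit is not stated in the labels.

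Cells were kept with at least 1000 UMIs, 500 genes and at most 10% mitochondrial UMIs. Scrublet (expected rate 10%) called 1106 HET (6.44%) and 1218 HOM (6.46%) barcodes as doublets, which were removed. After log scaling to 10000 per cell, 2000 variable genes without the 6 PDGF genes, 30 principal components, 20 neighbours and Leiden resolution 1 gave 34 clusters (seed 1). Subclusters used resolution 0.5. A class name was given at a mean marker enrichment of 1 or more (log2), at least 3 markers at 2-fold or more, a lead of 0.5 over other types and own markers among the leading genes. These thresholds were set after the data were seen, and 8 clusters stayed unnamed (13.3% of HET and 15.0% of HOM cells). Rebuilt names may differ from the study's own. The software was Python 3.11.15 with igraph 0.11.9, leidenalg 0.10.2, matplotlib 3.10.9, numpy 2.4.6, pandas 2.3.3, scanpy 1.11.5, scikit-learn 1.9.0 and scipy 1.17.1.

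UMIs were summed per class and library and given as CPM with exact Poisson intervals, ratios with exact conditional binomial intervals and shares of cells with exact Clopper-Pearson intervals, all at 95%. Where no UMI was counted, the level that 3 counts would give is stated as the limit. With 1 library per genotype no p-value is given. The scripts were tested on simulated data. The 6 genes, the pathway lists and the marker lists were chosen with earlier results of these data known. Named genes are all 6 members in every class of at least 50 cells in each library, up to 3 called genes per pathway list in each of 5 classes, and the 5 genes most like each member among those with at least 200 UMIs. Genes and subclusters named beside these as markers or leading genes were chosen after their values were seen. Other filters, doublet handling, clustering, weights, thinning depths and call rules were tried. 1 pathway gene is not reported here.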

Additional observations from a re-analysis of the deposited data

Results flagged for a closer look

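The Pdgfa ratio, HOM over HET, lay on opposite sides of 1 in the 2 classes with whole intervals away from it. It was 0.839 in endothelial-like cells (315 and 253 UMIs) and 1.27 in BAM-like cells (212 and 307 UMIs). With 1 library per genotype every library of a class moves one way by construction, and the difference between the classes was not tested. Over the alternative settings the ratio ran from 0.741 to 0.886 in endothelial-like cells and from 1.12 to 1.33 in BAM-like cells.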

How the results depend on the processing

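No paired analysis was possible because each genotype has 1 library, and no replicate could be left out for the same reason. The cause of each change below was not tested. The log2 ratio of Pdgfb in BAM-like cells (0.57) was 0.36 at a mitochondrial limit of 5%, 0.0857 at 20%, 0.13 with doublets kept, 0.16 at Leiden resolution 0.5 and 0.39 as a mean over clusters. That of Pdgfra in fibroblast-like cells (0.52) was 0.29 at 5%, 0.31 at 500 UMIs per cell, 0.17 at resolution 2 and 0.14 as a mean over clusters. That of Pdgfrb in mural-like cells (0.36) was 0.74 at 20%, 0.81 at 2000 UMIs, 0.10 with doublets kept and 0.15 with equal weight per cell. Among alternatives chosen after seeing the data, leaving out mixed subclusters gave 0.34 (Pdgfb) and 0.15 (Pdgfrb), and the same mix of subclusters gave 0.26, 0.37 (Pdgfra) and 0.14 (Pdgfrb). These 3 ratios kept their direction in all alternatives that gave them a value, and mural-like cells had none at 5%.

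Among the 11 gene and class pairs whose interval left out 1, the sign turned in 3, for Pdgfd in fibroblast-like cells at a limit of 5% (log2 0.15) and in choroid plexus epithelial-like cells for Pdgfb at 5% (-0.037) and for Pdgfra at 5% (-0.13) and with doublets kept (-0.0086). Among the 17 pairs whose interval holds 1, it turned in at least 1 setting in 10. These reached -0.56 for Pdgfrb in endothelial-like cells, -0.28 for Pdgfa in mural-like cells, -0.14 for Pdgfa in fibroblast-like cells, 0.46 for Pdgfd in choroid plexus epithelial-like cells and 0.29 for Pdgfra in neuron-like cells. Pairs whose interval left out 1 (11) numbered 3 at a limit of 5% and 7 with doublets kept. Pairs past 1.5-fold (1) numbered 0 at 5%, 4 at 20% and 4 with at least 20 UMIs, 3 with doublets kept, and 2 at 500 or 2000 UMIs per cell, at resolution 2, when clustered with the 6 genes, or with at least 50 UMIs. Pathway list calls (16) numbered 43 when a log2 ratio of 0.32 was enough.

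The class with the highest level was counted for 6 genes in 2 libraries, a measure chosen after single values were seen to move. It stayed as reported in 7 of 12 cases at a limit of 5%, where mural-like and oligodendrocyte-like cells fell below 50 in HET and no cluster was named neutrophil-like, and in 10 to 12 of 12 in the other settings. Those changes concerned Pdgfc and, at 2000 UMIs per cell, Pdgfd. For shares of cells it stayed in 9 of 12 cases at 2000 UMIs and without thinning. Of the single CPM values recomputed, 152 moved beyond their counting interval and 816 did not. Of the shares, 131 did and 45 did not. Scaling shifted the median of all genes by at most 0.08 (log2).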

Other observations

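Clusters left without a name held PDGF transcripts too. A cluster led by Prl, Pomc and Dcn (105 HET and 193 HOM cells) had 479 CPM of Pdgfra in HET and 267 CPM in HOM, a ratio of 0.556 (0.467 to 0.662), and 141 and 85.9 CPM of Pdgfrb. Its receptor levels thus differed in the opposite direction to those of fibroblast-like cells, a difference that was not tested. Bglap, Bglap2, Ibsp, Hba-a1 and Hba-a2 were also among its leading genes. Fibroblast markers scored highest in it (4.60), followed by red-cell markers (2.68), and the part of this mix in its receptor levels was not tested. It gave 17.7% of all Pdgfra UMIs in HET and 10.4% in HOM. A cluster with endothelial and mural markers (120 and 96 cells) had 299 and 280 CPM of Pdgfa and 466 and 463 CPM of Pdgfb. Its Pdgfd level was above that of endothelial-like cells, with 40 UMIs of 454877 in HET and 31 of 371372 in HOM. A cluster led by Rspo3, F3 and Ccn3 (564 and 663 cells) gave 11.8% of all Pdgfd UMIs in HET and 19.6% in HOM. A cluster with BAM and microglia markers (173 and 234 cells) had 135 and 149 CPM of Pdgfb, between the BAM-like and the microglia-like level in each library.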
